A study of Mus musculus with 12 samples.

Results

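The small ribosomal subunit protein genes encode the proteins that, with 18S rRNA, make the 40S subunit of the cytoplasmic ribosome. They were followed here in RNA-seq and Ribo-seq of mouse B cell lymphomas that carry the Eμ-Myc transgene, with or without the nucleotide synthesis gene Prps2. Members are the transcripts of the deposited table whose paired gene name is Rps followed by a digit, Rpsa or Fau, leaving out S6 kinase genes. The rule found 34 genes among 20561 transcripts, of which 2634 had a paired name. The names were taken from the study's supplemental tables, and all 34 stand in its list of transcripts with raised translation efficiency (TE, footprints per RNA), 18 of them also in its list with a terminal oligopyrimidine motif and 0 in its list of transcripts raised in both assays. The members were therefore selected on their measured TE values, by the same genotype comparison that is described below, so the genotype differences of members are given as a description, and nothing is read from any count of members called, in the main fits or under an alternative. The reference list of mouse symbols holds 38 names that meet the rule, and Rps12l1, Rps3a2, Rps3a3 and Rps4l, which had no paired transcript, were not analysed here.

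The Eμ-Myc/+ group and the Eμ-Myc/+ Prps2null group had 3 labelled biological replicates each, and each replicate gave 1 RNA-seq and 1 Ribo-seq library (12 libraries). Both genotypes share the transgene, in which the Eμ immunoglobulin enhancer drives Myc in B cells. Prps2 encodes an enzyme of purine and pyrimidine synthesis and is null in the second group only. Per the labels, cryopreserved lymphoma cells of either genotype had been injected into the tail vein of 8-week-old male C57BL/6 mice. Also per the labels, no drug was given, and B lymphocytes were taken from lymph nodes with an isolation kit. The study's sequencing methods take the cells from lymphoma-bearing mice of both genotypes and name no injection there, so an allograft origin is not settled. The labels do not say whether the replicates of a genotype came from separate primary tumours or hosts, so the spread between them may be in part technical.

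As background, translation starts when a 40S subunit loaded with initiation factors and initiator tRNA binds the capped 5′ end of an mRNA and scans to the start codon. The mRNAs of ribosomal proteins are classic TOP mRNAs: they begin with a cytosine followed by a run of pyrimidines, through which mTORC1, acting in part by way of LARP1, sets how many of them are engaged by ribosomes. Myc also drives transcription of ribosomal protein genes. A small subunit protein is needed in about equal amounts with its partners, and surplus protein is degraded.

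RefSeq start sequences (GRCm38) were given for 26 of the 34 genes. They are shown because the run of pyrimidines at the first base is the feature by which TOP mRNAs are defined. A cytosine at the annotated start followed by 4 to 15 pyrimidines was found in 8 of 31 start windows of these genes (some genes have several), or 25.8%, against 2.51% of all 32851 windows. The 8 lines below give 5 bases before the start in lower case and then the 20 genomic bases from the start on, with the pyrimidine run in capitals. Where the first exon ends was not checked, so the last bases of a line may be intron.
Fau (chr19:6057942-6057966, plus strand): cacttCTTCCTCTTTCTTgactcca
Rps6 (chr4:86857348-86857372, minus strand): cgggcCTCTTTTTCgtgacgcctcc
Rps10 (chr17:27635225-27635249, minus strand): cgcccCTTCCTTTCCagcctccgcc
Rps15a (chr7:118116128-118116152, minus strand): gccatCTTCCCTCgccggtgagtga
Rps18 (chr17:33955646-33955670, minus strand): ccgctCTCTCTTCCacaggaggcct
Rps21 (chr2:180257374-180257398, plus strand): ccgccCTCCTgcccaatagtgctgc
Rps27 (chr3:90213629-90213653, minus strand): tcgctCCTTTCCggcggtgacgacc
Rps27rt (chr9:114982720-114982744, minus strand): ccttgCTTTCCggcggtgacgacct
The run was 13 bases long in Fau, 10 in Rps10 and 9 in both Rps6 and Rps18, and 5 in Rps21. The start of Rps27 and that of Rps27rt shared an unbroken stretch of 38 bases, so reads that lie wholly within it match both genes.

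The next 4 lines give genes with no such run at the annotated base, chosen because their RNA differed most between genotypes (Rps23), differed least (Rps12), or had the fewest (Rpsa) or the most (Rps27l) footprints per RNA. They hold no capitals, and the annotated start may differ by some bases from the start used in these cells.
Rps23 (chr13:90923117-90923141, plus strand): gggcggggcttcccgcaatgccttg
Rps12 (chr10:23787190-23787214, minus strand): cggccaccgccggccttttcccctg
Rpsa (chr9:120127761-120127785, plus strand): taaggacgtcatttccggccgcccg
Rps27l (chr9:66946081-66946105, plus strand): ccgccgcctctatcccggaagttgc
In the 300 bases around the start (250 before and 50 after), CCGGAAG, a core that ETS family factors bind, was found on either strand in 12 of the 31 windows (38.7%, against 8.86% of all windows), in 11 genes. CACGTG, the E-box that Myc binds, was found in 1 window of the 31 (3.23%, against 7.15%). TATAAA was found in 2 windows (6.45%, against 13.6%) and AAGATGGC, a YY1 core, in 3 windows (9.68%, against 2.75%). CCGGAAG and AAGATGGC can share the letters AAG, and each match is a description of the window. The genes lie on 14 chromosomes, with 9 of the 34 on chromosome 7.

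Library totals ranged from 4135908 to 6648829 counts in RNA-seq and from 975201 to 2793163 in Ribo-seq, and the lowest count of any member was 47 in RNA-seq (Rps27l) and 120 in Ribo-seq (Rps27), whose counting errors are 14.6% and 9.13%. Values per library are given as CPM, the count scaled to a library total of 1000000. Prps2 RNA was 60.3, 60.9 and 56.5 CPM in Eμ-Myc/+ and 10.9, 8.53 and 9.09 CPM in Eμ-Myc/+ Prps2null lymphomas, in the direction of the labels. Prps2 footprints were 163, 129 and 8.18 CPM in the Eμ-Myc/+ and 5.11, 139.7 and 9.65 CPM in the Eμ-Myc/+ Prps2null libraries, so the library labelled Eμ-Myc/+ replicate 3 and the library labelled Eμ-Myc/+ Prps2null replicate 2 went against their labels in Ribo-seq. Samples were kept in their labelled groups, and the footprint fold changes below are given with all libraries and without these 2. Of 9 B cell markers 4 had a paired name, and their summed RNA was 1948 to 2796 CPM in Eμ-Myc/+ and 362 to 821 CPM in Eμ-Myc/+ Prps2null libraries. The markers did not move together in RNA. Cd74, Cd79a and Blnk were lower in every Eμ-Myc/+ Prps2null library. Ms4a1, which encodes CD20, was 7.70, 5.87 and 7.90 CPM in Eμ-Myc/+ and 50.3, 77.4 and 94.6 CPM in Eμ-Myc/+ Prps2null libraries. In footprints of all 4 B cell markers, the same 2 Ribo-seq libraries lay on the side of the other genotype. Cd74 had 1497, 1437 and 499 CPM in Eμ-Myc/+ and 619.95, 1283 and 604 CPM in Eμ-Myc/+ Prps2null Ribo-seq libraries. Ms4a1 had 38.3, 23.2 and 207 CPM in Eμ-Myc/+ and 227, 22.04 and 221 CPM in Eμ-Myc/+ Prps2null Ribo-seq libraries. Footprints of Lyz2, a myeloid marker, did not divide this way, and the cause was not tested. Summed RNA of the named markers of other cells was 24.8 to 35.3 against 16.7 to 19.6 CPM for T cells (1 of 7 named), 17.1 to 36.2 against 13.0 to 28.5 CPM for myeloid cells (2 of 5) and 50.5 to 113 against 16.9 to 29.0 CPM for stroma (4 of 5), and of the 4 erythroid markers 0 had a name. The part of these shifts in the results below was not tested, and fewer cells of a type and less RNA per cell cannot be told apart in bulk libraries.

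Small subunit genes together took 6.40, 5.61 and 5.55% of RNA-seq counts in the Eμ-Myc/+ libraries and 1.05, 1.75 and 2.26% in the Eμ-Myc/+ Prps2null libraries (5.85% ± 0.47 and 1.69% ± 0.61, SD, n = 3). The groups did not overlap, and the lowest Eμ-Myc/+ library stood well above the highest Eμ-Myc/+ Prps2null library. Of the footprints, the same genes took 1.49, 1.54 and 1.00% in Eμ-Myc/+ and 1.26, 1.41 and 1.11% in Eμ-Myc/+ Prps2null libraries. Here the groups overlapped, with the library labelled Eμ-Myc/+ replicate 3 lowest of all 6. Without it and the library labelled Eμ-Myc/+ Prps2null replicate 2, the shares were 1.49 and 1.54% against 1.26 and 1.11%. The genotype difference in RNA was not mirrored by a footprint difference of that size. The members were selected for raised TE, which favours such a gap, so nothing is read from it.

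**Figure D1:**
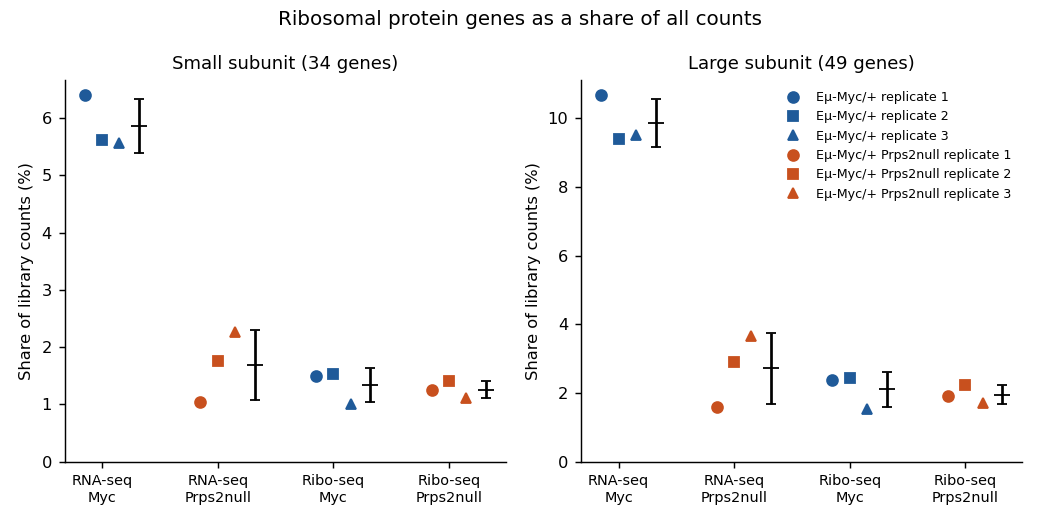
Share of all counts (%, linear axis from 0) held by the 34 small subunit genes (left) and the 49 large subunit genes (right) in each library; symbols are replicates and black bars are the mean ± SD of 3 libraries. In RNA-seq the Eμ-Myc/+ libraries sit at 5.55 to 6.40% for the small subunit and the Eμ-Myc/+ Prps2null libraries at 1.05 to 2.26%, while the Ribo-seq groups overlap.

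In RNA-seq all 34 genes were lower without Prps2, with a median log2 fold change of -2.13 against 0.08 over all 14682 transcripts tested. All 34 passed an adjusted p of 0.05 in edgeR's quasi-likelihood test, where 18.5% of all transcripts passed in that direction, and in all 34 every Eμ-Myc/+ Prps2null library lay below every Eμ-Myc/+ library (16.6% of all transcripts). The genes came from a list made on this comparison, so nothing is read from these counts. The log2 fold changes ran from -3.27 for Rps23 to -0.98 for Rps12, 24 were below -2, and the standard errors were 0.23 to 0.37. The middle of this order is crowded: from Rpsa to Rps29 neighbours differed by less than 0.1 on the log2 scale, within their errors. Without Eμ-Myc/+ replicate 1 the count was 33, Rps12 being the one that no longer passed.

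**Figure D2:**
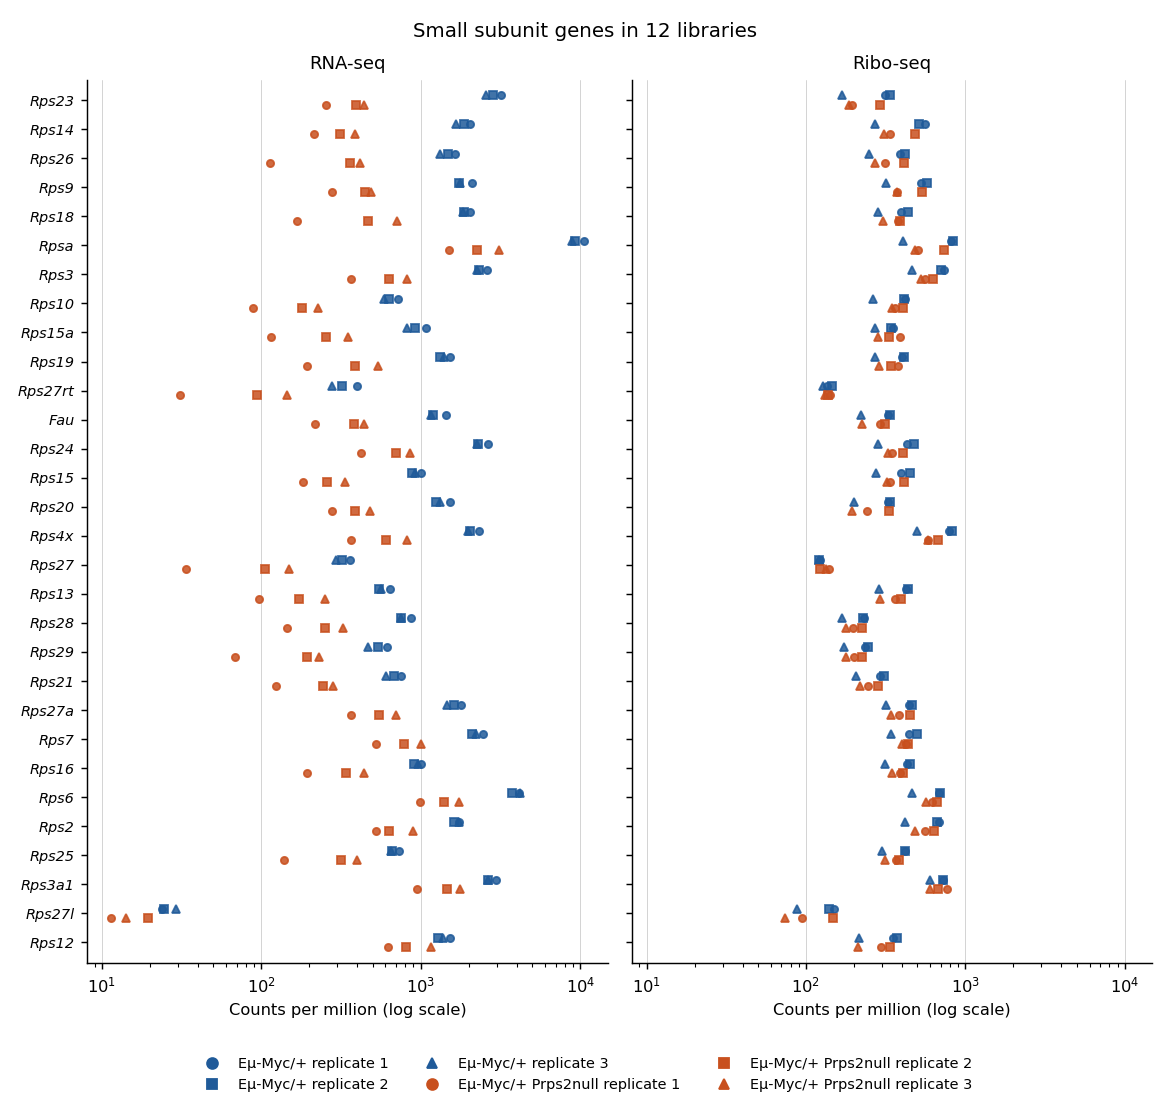
CPM (log axis) of 30 of the 34 small subunit genes in RNA-seq (left) and Ribo-seq (right), ordered by RNA fold change from Rps23 to Rps12; symbols are replicates. In RNA-seq the genotypes are apart in every gene shown, most in Rps23 (2561 to 3175 against 255 to 441 CPM), and in Ribo-seq they intermix in each gene shown but Rps27.

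Rps23 sits at the decoding centre of the subunit, where codon and anticodon meet. Its RNA was 3175, 2833 and 2561 CPM in the 3 Eμ-Myc/+ libraries and 255, 392 and 441 CPM in the 3 Eμ-Myc/+ Prps2null libraries. The lowest Eμ-Myc/+ library was 5.80 times the highest Eμ-Myc/+ Prps2null library, the widest gap of the 34 genes, and the log2 fold change was -3.27 ± 0.27 (SE). Its footprints were 313, 335 and 169 CPM in the Eμ-Myc/+ libraries and 193, 290.2 and 187 CPM in the Eμ-Myc/+ Prps2null libraries, overlapping between genotypes, with a log2 fold change of -0.29 ± 0.32. Without the 2 libraries that go against their labels the footprint change was -0.79 ± 0.13.

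Rps12, a protein of the head, stood at the other end. Its RNA was 1523, 1281 and 1372 CPM in the 3 Eμ-Myc/+ libraries and 626, 808 and 1159 CPM in the 3 Eμ-Myc/+ Prps2null libraries. The groups still did not overlap, but Eμ-Myc/+ Prps2null replicate 3 came within 1.11-fold of the lowest Eμ-Myc/+ library, and the log2 fold change was -0.98 ± 0.25. Footprints of Rps12 were 350.3, 373 and 215 CPM in the Eμ-Myc/+ libraries and 296, 338 and 214 CPM in the Eμ-Myc/+ Prps2null libraries, lowest and nearly equal in replicate 3 of both groups. The footprint log2 fold change was -0.15 ± 0.28, and -0.53 ± 0.14 without the 2 libraries that go against their labels.

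Rps6 is the subunit protein that S6 kinase phosphorylates downstream of mTORC1. Its RNA was 4134, 3727 and 4159.7 CPM in the 3 Eμ-Myc/+ libraries and 982, 1397 and 1726 CPM in the 3 Eμ-Myc/+ Prps2null libraries, a log2 fold change of -1.84 ± 0.27. All 3 Eμ-Myc/+ Prps2null libraries were below the Eμ-Myc/+ range, with replicate 1 lowest. Its footprints were 685, 694 and 459 CPM in the Eμ-Myc/+ libraries and 622, 659 and 563 CPM in the Eμ-Myc/+ Prps2null libraries, and the groups overlapped (log2 fold change 0.00 ± 0.21, and -0.24 ± 0.10 without the 2 libraries). The protein's phosphorylation, the usual readout of the pathway, is not measured by either assay.

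2 members are made as fusion proteins. Rps27a is translated with ubiquitin at its N terminus, and its RNA was 1791, 1609 and 1465 CPM in the 3 Eμ-Myc/+ libraries and 365, 551 and 701 CPM in the 3 Eμ-Myc/+ Prps2null libraries. Fau is translated with the ubiquitin-like protein FUBI, and its RNA was 1443, 1194 and 1151 CPM in the 3 Eμ-Myc/+ libraries and 217, 381 and 441 CPM in the 3 Eμ-Myc/+ Prps2null libraries. Both were lower in every Eμ-Myc/+ Prps2null library, with log2 fold changes of -1.88 and -2.16. Footprints of Rps27a were 443, 459 and 319 CPM in the Eμ-Myc/+ libraries and 386, 451 and 343 CPM in the Eμ-Myc/+ Prps2null libraries. Those of Fau were 326, 335 and 222 CPM in the Eμ-Myc/+ libraries and 290.3, 312 and 226 CPM in the Eμ-Myc/+ Prps2null libraries. In both genes the footprints of the genotypes overlapped, and the same library, labelled Eμ-Myc/+ replicate 3, was lowest. Footprint log2 fold changes were -0.05 ± 0.21 for Rps27a and -0.09 ± 0.23 for Fau, and -0.33 ± 0.11 and -0.38 ± 0.13 without the 2 libraries that go against their labels.

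Rpsa, also known as the laminin receptor precursor, lies where the head meets the platform. Its RNA was 10579.8, 9264 and 8918 CPM in the 3 Eμ-Myc/+ libraries and 1501, 2266 and 3077 CPM in the 3 Eμ-Myc/+ Prps2null libraries. These groups were far apart (log2 fold change -2.36 ± 0.31). Its footprints were 809, 834 and 406 CPM in the Eμ-Myc/+ libraries and 505, 733 and 479 CPM in the Eμ-Myc/+ Prps2null libraries. The libraries labelled Eμ-Myc/+ replicates 1 and 2 and Eμ-Myc/+ Prps2null replicate 2 were high and the other 3 were low, the same division as for Prps2 footprints. The footprint log2 fold change was -0.26 ± 0.33 with all libraries and -0.76 ± 0.10 without the 2 that go against their labels.

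Rps3 lines the channel where mRNA enters and has further roles in DNA repair and NF-κB signalling. Its RNA was 2609, 2324 and 2259 CPM in the 3 Eμ-Myc/+ libraries and 367, 634 and 821 CPM in the 3 Eμ-Myc/+ Prps2null libraries (log2 fold change -2.27 ± 0.29). The genotypes did not overlap. Its footprints were 737, 708 and 461 CPM in the Eμ-Myc/+ libraries and 555, 626 and 526 CPM in the Eμ-Myc/+ Prps2null libraries, with overlap between the genotypes (log2 fold change -0.16 ± 0.22, and -0.44 ± 0.10 without the 2 libraries). Rps19 is the gene most often mutated in Diamond-Blackfan anaemia, a failure of red cell production caused by defects in ribosomal proteins. Its RNA was 1525, 1327 and 1393 CPM in the 3 Eμ-Myc/+ libraries and 193, 384 and 540.2 CPM in the 3 Eμ-Myc/+ Prps2null libraries (log2 fold change -2.22 ± 0.30). Its footprints were 403, 409 and 269 CPM in the Eμ-Myc/+ libraries and 376, 343 and 287 CPM in the Eμ-Myc/+ Prps2null libraries, again with overlap (log2 fold change -0.10 ± 0.22, and -0.32 ± 0.13 without the 2 libraries).

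Rps27, Rps27rt and Rps27l are close relatives. Rps27 RNA was 362, 322 and 292 CPM in the 3 Eμ-Myc/+ libraries and 33.8, 105 and 149.8 CPM in the 3 Eμ-Myc/+ Prps2null libraries. Rps27rt, an annotated gene of 374 bases at chr9:114982366-114982739 (GRCm38), had 399, 322 and 277 CPM in the 3 Eμ-Myc/+ libraries and 30.9, 93.5 and 144 CPM in the 3 Eμ-Myc/+ Prps2null libraries. The values of both followed each other from library to library, and because their sequences are nearly identical at the start, how the aligner divided reads between them is uncertain. Rps27 footprints were 122, 120.3 and 119.9 CPM in the Eμ-Myc/+ libraries and 139, 123 and 133 CPM in the Eμ-Myc/+ Prps2null libraries. It was the 1 member whose footprint groups did not overlap, being higher in all Eμ-Myc/+ Prps2null libraries, a pattern found in 1.58% of all transcripts, by a log2 fold change of 0.12 ± 0.13, less than its error. The closest libraries of the 2 genotypes, at 122.3 and 122.6 CPM, differed by less than counting error, and the log2 fold change was 0.13 ± 0.15 without the 2 libraries that go against their labels. By contrast 0 members were lower without overlap (2.89% of all transcripts). Rps27rt footprints were 136, 145 and 127 CPM in the Eμ-Myc/+ libraries and 141, 138 and 132 CPM in the Eμ-Myc/+ Prps2null libraries, the narrowest range over the 6 Ribo-seq libraries of any member (1.14-fold). Its footprint log2 fold change was 0.01 ± 0.14 with all libraries and -0.07 ± 0.15 without the 2.

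Rps27l, whose gene p53 activates in many cells, had the lowest RNA counts of the 34 genes and so the widest counting error. Its RNA was 23.7, 24.5 and 29.1 CPM in the 3 Eμ-Myc/+ libraries and 11.4, 19.5 and 14.3 CPM in the 3 Eμ-Myc/+ Prps2null libraries. The log2 fold change was -1.05 ± 0.23, with the highest Eμ-Myc/+ Prps2null library still below the lowest Eμ-Myc/+ library. Its footprints were 151, 139 and 88.2 CPM in the Eμ-Myc/+ libraries and 94.6, 147 and 74.3 CPM in the Eμ-Myc/+ Prps2null libraries. They split as those of Rpsa did, high in the libraries with high Prps2 footprints, and without the 2 libraries that go against their labels the footprint log2 fold change was -0.80 ± 0.17, against -0.26 ± 0.32 with all 6.

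The other proteins of the body and platform form the mRNA channel and the faces that meet the large subunit. Among those at the mRNA entry, Rps2 RNA was 1696 ± 61.7 CPM in Eμ-Myc/+ and 682 ± 186 CPM in Eμ-Myc/+ Prps2null lymphomas (SD, n = 3, as for each mean below). Rps9, also at the entry, had 1872 ± 204 CPM in Eμ-Myc/+ and 404 ± 110.1 CPM in Eμ-Myc/+ Prps2null lymphomas. Of the platform proteins, which surround the mRNA exit, Rps14, whose human gene is lost in the 5q deletion of myelodysplastic syndrome, had 1857 ± 195 CPM in Eμ-Myc/+ and 305 ± 87.6 CPM in Eμ-Myc/+ Prps2null lymphomas. Rps26, another protein of the exit channel, had 1483 ± 160.1 CPM in Eμ-Myc/+ and 296 ± 160.4 CPM in Eμ-Myc/+ Prps2null lymphomas. Rps3a1, also on the platform, was one of the least different, with 2754 ± 184 CPM in Eμ-Myc/+ and 1393 ± 415 CPM in Eμ-Myc/+ Prps2null lymphomas. So the platform held both some of the largest differences (log2 fold change -2.89 ± 0.26 for Rps14 and -2.62 ± 0.36 for Rps26) and one of the smallest (-1.27 ± 0.26 for Rps3a1).

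The remaining proteins of the body described here lay closer together, with log2 fold changes from -2.27 for Rps15a to -1.85 for Rps7. Rps7, a gene mutated in some patients with Diamond-Blackfan anaemia, had 2262 ± 169.8 CPM in Eμ-Myc/+ and 769.6 ± 243 CPM in Eμ-Myc/+ Prps2null lymphomas. Rps24, which belongs to the same disease group, had 2393 ± 204 CPM in Eμ-Myc/+ and 657 ± 219.8 CPM in Eμ-Myc/+ Prps2null lymphomas. Rps4x, the X-linked member, had 2102 ± 187 CPM in Eμ-Myc/+ and 596 ± 225 CPM in Eμ-Myc/+ Prps2null lymphomas. Rps13, near the face that meets the large subunit, had 585 ± 51.7 CPM in Eμ-Myc/+ and 173 ± 77.6 CPM in Eμ-Myc/+ Prps2null lymphomas. Rps15a had 939 ± 135 CPM in Eμ-Myc/+ and 239.9 ± 119 CPM in Eμ-Myc/+ Prps2null lymphomas, and Rps21 had 676 ± 73.1 CPM in Eμ-Myc/+ and 216 ± 82.6 CPM in Eμ-Myc/+ Prps2null lymphomas. In each of these 6 genes the means were several SDs apart.

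The head of the subunit swivels as tRNAs move. Rps15, Rps16 and Rps18 reach towards the tRNA sites: Rps15 RNA was 932 ± 65.5 CPM in Eμ-Myc/+ and 259.7 ± 76.6 CPM in Eμ-Myc/+ Prps2null lymphomas. Rps16 RNA was 952 ± 46.5 CPM in Eμ-Myc/+ and 326 ± 124 CPM in Eμ-Myc/+ Prps2null lymphomas. Rps18 RNA was 1919 ± 106 CPM in Eμ-Myc/+ and 446 ± 270.1 CPM in Eμ-Myc/+ Prps2null lymphomas, the largest log2 fold change of the head (-2.40 ± 0.37). Rps10 and Rps20 are ubiquitylated by ZNF598 when ribosomes collide. Rps10 had 646 ± 69.9 CPM in Eμ-Myc/+ and 165 ± 70.2 CPM in Eμ-Myc/+ Prps2null lymphomas, and Rps20 had 1362 ± 139.6 CPM in Eμ-Myc/+ and 380.4 ± 102 CPM in Eμ-Myc/+ Prps2null lymphomas. Rps25, needed by several viral internal ribosome entry sites, was among the less different genes of the head, with 681 ± 42.7 CPM in Eμ-Myc/+ and 283 ± 132 CPM in Eμ-Myc/+ Prps2null lymphomas (log2 fold change -1.56 ± 0.29). Rps29 is mutated in some patients with Diamond-Blackfan anaemia and had 539 ± 72.3 CPM in Eμ-Myc/+ and 163 ± 84.5 CPM in Eμ-Myc/+ Prps2null lymphomas, and Rps28 had 793 ± 70.4 CPM in Eμ-Myc/+ and 239 ± 89.6 CPM in Eμ-Myc/+ Prps2null lymphomas.

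By place, the median RNA log2 fold change was -2.11 (-3.27 to -1.27) for the 17 genes of body and platform and -2.13 (-2.40 to -0.98) for the 14 genes of the head. The 15 proteins with a counterpart in bacterial ribosomes had a median of -2.24 (-3.27 to -1.60) and the 19 without one -2.04 (-2.62 to -0.98). The ranges of these groups overlapped. The 8 genes with a pyrimidine run at the annotated start had a median RNA log2 fold change of -2.18 (-2.40 to -1.84), and the 18 with a start sequence but no run there -2.08 (-3.27 to -0.98). The median footprint log2 fold change was 0.01 for the first and -0.11 for the second set, and -0.25 and -0.43 without the 2 Ribo-seq libraries that go against their labels. This split goes by the annotated base, which may differ from the start used in these cells. The study's list with a terminal oligopyrimidine motif holds 18 of the 34 members, so the 2 sets are not TOP against other mRNAs.

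**Figure D3:**
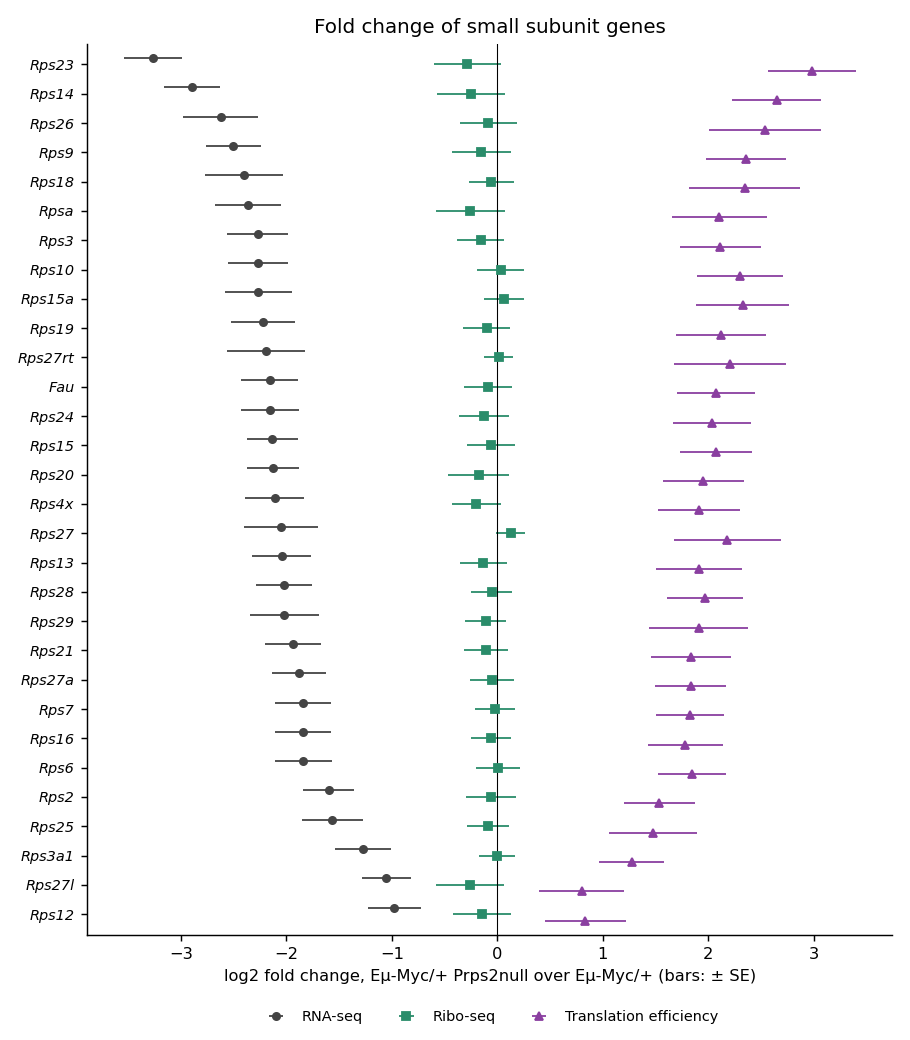
log2 fold change ± SE (Eμ-Myc/+ Prps2null over Eμ-Myc/+) of 30 of the 34 small subunit genes in RNA-seq, Ribo-seq and translation efficiency, ordered by the RNA value. RNA values lie between -3.27 and -0.98, footprint values within 0.29 of 0, and TE values between 0.80 and 2.98.

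The genes also varied together among libraries of 1 genotype, which is a description too, since the list they came from was made on these libraries. Within Eμ-Myc/+ RNA-seq the highest library was 1.07 to 1.44 times the lowest (median 1.19), and in 31 of 34 genes replicate 1 was highest, as in 29.8% of all transcripts. Within Eμ-Myc/+ Prps2null RNA-seq the ratio was 1.69 to 4.67 (median 2.24). Replicate 1 was lowest in 34 of 34 genes (46.7% of all transcripts) and replicate 3 highest in 33 of 34 (34.5% of all transcripts). Rps27l was the exception, with replicate 2 highest. The widest spreads inside the genotype were those of Rps27rt (4.67-fold), Rps27 (4.42-fold) and Rps18 (4.22-fold), and the narrowest was that of Rps2 (1.69-fold). Eμ-Myc/+ Prps2null replicate 1 also stood apart in other ways: its most abundant transcript held 7.88% of counts, against 5.44 and 4.97% in the other two of its genotype. Without that lymphoma the median RNA log2 fold change of the 34 genes was -1.83, and all 34 were still lower.

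**Figure D4:**
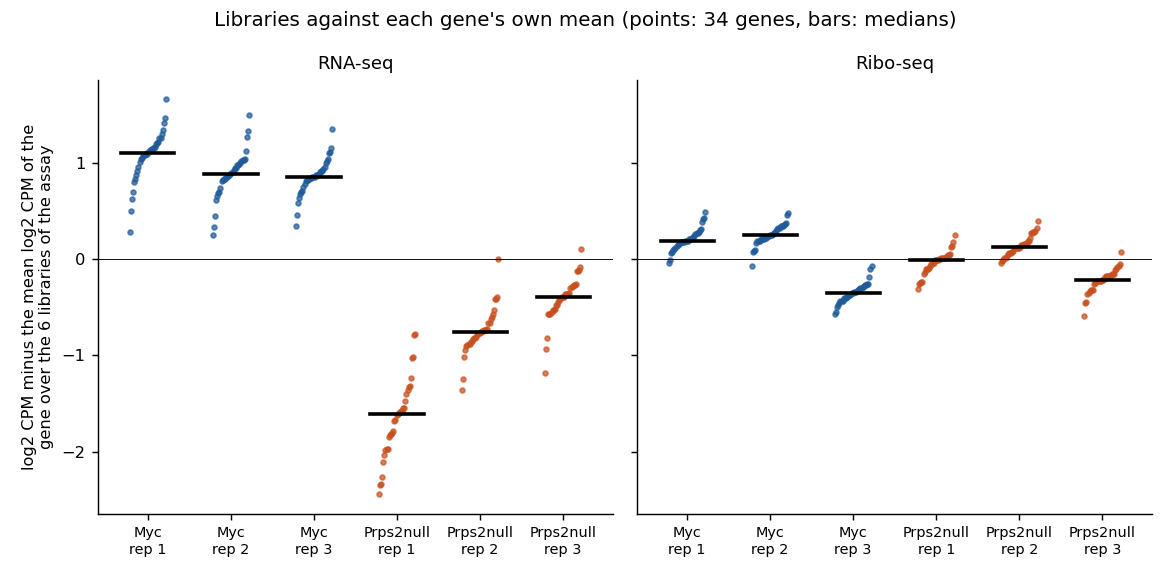
log2 CPM of each small subunit gene in each library, minus the mean log2 CPM of that gene over the 6 libraries of the assay; points are the 34 genes in order of value and bars are medians. The RNA-seq medians run from -1.61 (Eμ-Myc/+ Prps2null replicate 1) to 1.11 (Eμ-Myc/+ replicate 1), and the Ribo-seq medians only from -0.35 (Eμ-Myc/+ replicate 3) to 0.25 (Eμ-Myc/+ replicate 2).

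With all libraries in their labelled groups, including those against their label in Prps2, footprints of the 34 genes differed little between genotypes. The median log2 fold change was -0.09, against 0.00 over all 9031 transcripts tested, with 29 genes lower and 5 higher, and all 34 lay within 1 standard error of 0. By edgeR 0 members passed an adjusted p of 0.05, as did 0% of all transcripts in either direction, 0 had an unadjusted p under 0.05 (47 of all transcripts), and DESeq2 also called 0. A member's standard error of 0.13 to 0.33 leaves room for changes of that size in either direction. The members moved together here too: the library labelled Eμ-Myc/+ replicate 3 was lowest of its group in 34 of 34 genes (36.4% of all transcripts), the library labelled Eμ-Myc/+ Prps2null replicate 2 highest of its group in 29 (39.4%), and Eμ-Myc/+ Prps2null replicate 3 lowest in 32 (28.7%).

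Leaving out the 2 Ribo-seq libraries whose Prps2 footprints go against their labels, a choice made after the data were seen, gave a median footprint log2 fold change of -0.37, with 33 genes lower and 1, Rps27, higher. Of the 34 genes 21 then passed an adjusted p of 0.05, all lower. Of the 9048 transcripts tested 17.9% passed in that direction and 18% as higher, against 0% with all libraries. The lowest values were those of Rps27l (-0.80 ± 0.17), Rps23 (-0.79 ± 0.13), Rpsa (-0.76 ± 0.10) and Rps14 (-0.75 ± 0.11). Rps6 (-0.24 ± 0.10), Rps3a1 (-0.11 ± 0.11) and Rps15a (-0.07 ± 0.14) did not pass. Nothing is read from this count either. Each group then held 2 libraries, so these values rest on 4 libraries in all. The 2 Eμ-Myc/+ libraries among them differed by little more than sampling noise, so the standard errors may be in part technical. The footprint difference of any member, under either choice, was smaller than its RNA difference. The members were selected for raised TE, which favours this, so nothing is read from it.

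TE, the term by which the genotype effect differs between the assays in 1 fit of all 12 libraries, was higher without Prps2 for all 34 genes, with a median log2 fold change of 2.05 against 0.28 over all 8987 transcripts tested. TE is the footprint change minus the RNA change, so with footprint changes near 0 its order is nearly that of the RNA, reversed. They ran from 0.80 ± 0.40 for Rps27l and 0.83 ± 0.38 for Rps12 to 2.65 ± 0.42 for Rps14 and 2.98 ± 0.42 for Rps23. Of the 34 genes 28 passed an adjusted p of 0.05, where 2.16% of all transcripts passed in that direction. This is the comparison that the study's list was made from, and nothing is read from the count. The 6 that did not pass were Rps12, Rps25, Rps27l, Rps27rt, Rps29 and Rps3a1. With the labelled lymphoma as a block, which pairs the RNA-seq and Ribo-seq library of each replicate label (a pairing in doubt for 2 of the 6 lymphomas, as given below), 6 genes passed (Rps10, Rps14, Rps15, Rps23, Rps3 and Rps9), where 0.467% of all transcripts did. The count was 0 without Eμ-Myc/+ replicate 1, without Eμ-Myc/+ replicate 2 or without Eμ-Myc/+ Prps2null replicate 2, and 4 without Eμ-Myc/+ replicate 3, while the median stayed between 1.77 and 2.44 without any 1 of the 6 lymphomas. In those 4 fits the transcripts passing among all tested fell to 0, 0, 5 and 36. Scaled by library totals alone 3 genes passed (0.245% of all transcripts), with a median of 1.75. Without the 2 Ribo-seq libraries that go against their labels 29 genes passed (3.14% of all transcripts) with a median of 1.74 and values from 0.25 for Rps27l to 2.48 for Rps23.

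In the ratio of footprint CPM to RNA CPM transcript length may cancel only in part, since footprints were counted by codon and RNA by aligned reads. Ratios of different genes are therefore not strictly comparable. Over the 34 genes the median ratio was 0.268, 0.306 and 0.220 in the Eμ-Myc/+ lymphomas and 1.58, 1.05 and 0.645 in the Eμ-Myc/+ Prps2null lymphomas, pairing libraries by their labels. In 32 of 34 genes every Eμ-Myc/+ Prps2null lymphoma was above every Eμ-Myc/+ lymphoma, as in 11.2% of the transcripts tested for TE, and the exceptions were Rps12 and Rps27l. The list was made on this quantity, so nothing is read from the count. For Rps12 the ratio was 0.230, 0.291 and 0.157 in the Eμ-Myc/+ lymphomas and 0.472, 0.419 and 0.184 in the Eμ-Myc/+ Prps2null lymphomas. For Rps27l it was 6.34, 5.68 and 3.03 in the Eμ-Myc/+ lymphomas and 8.33, 7.53 and 5.21 in the Eμ-Myc/+ Prps2null lymphomas, the highest of all members in each lymphoma. Rpsa had the lowest ratio, 0.0764, 0.090 and 0.0456 in the Eμ-Myc/+ lymphomas and 0.336, 0.323 and 0.156 in the Eμ-Myc/+ Prps2null lymphomas. The ratio of Rps27l was thus far above that of Rpsa in every lymphoma, whatever the genotype. Reads of close copies and pseudogenes can fall on a member, and their part in this was not tested. The pairing of these libraries (replicate 3 of Eμ-Myc/+ and replicate 2 of Eμ-Myc/+ Prps2null) with their RNA is in doubt, since the assays went opposite ways on Prps2 there.

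**Figure D5:**
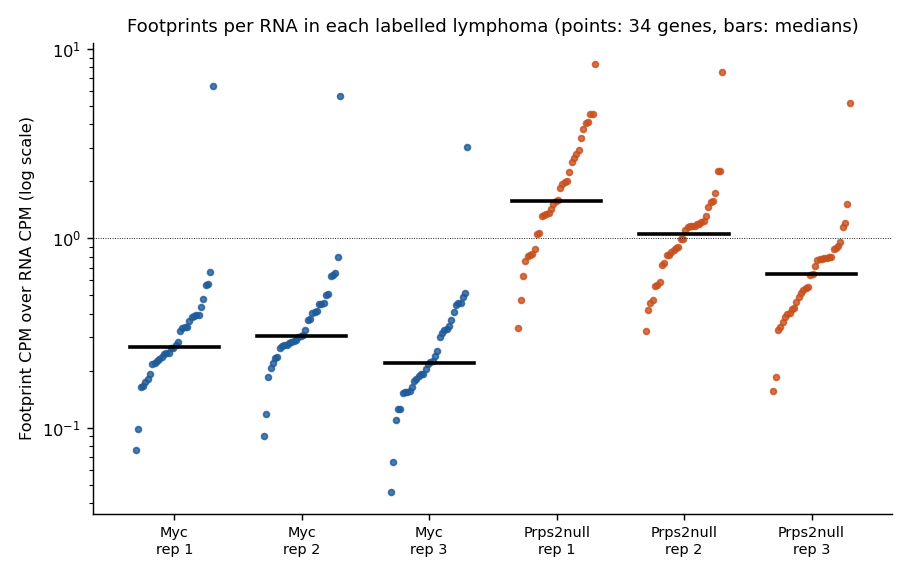
Footprint CPM over RNA CPM (log axis) for each small subunit gene in each labelled lymphoma; points are the 34 genes in order of value and bars are medians. Medians are 0.220 to 0.306 in Eμ-Myc/+ and 0.645 to 1.58 in Eμ-Myc/+ Prps2null lymphomas, and the separate point at the top of each column is Rps27l.

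The 49 large ribosomal subunit genes, whose products form the partner of the 40S subunit, gave like values. They took 10.7, 9.41 and 9.50% of RNA-seq counts in Eμ-Myc/+ and 1.59, 2.89 and 3.66% in Eμ-Myc/+ Prps2null libraries. The counts of small over large subunit genes stood at 0.600, 0.596 and 0.585 in Eμ-Myc/+ RNA and 0.659, 0.606 and 0.617 in Eμ-Myc/+ Prps2null RNA, and at 0.629 to 0.658 over the 6 Ribo-seq libraries. The ratio was highest in Eμ-Myc/+ Prps2null replicate 1, the RNA library with the lowest share of both. Median log2 fold changes were -2.18 in RNA, -0.12 in footprints and 2.07 in TE for the large subunit genes, against -2.13, -0.09 and 2.05 for the small. Without the 2 Ribo-seq libraries that go against their labels they were -0.41 in footprints and 1.79 in TE for the large subunit genes, against -0.37 and 1.74 for the small, and 39 of the 49 large subunit genes passed as lower in footprints (17.9% of all transcripts). Both sets were drawn from the same list, and the difference between them was not tested.

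Other genes of the pathway were taken from lists. They had a name only where the study's list of raised TE or its list with a terminal oligopyrimidine motif gave one. The list of raised TE was made on this genotype comparison, which favours lower RNA and higher TE, so nothing is read from the counts that follow. Of 34 initiation factors and partners of the 40S subunit 16 were named, and all 16 passed as lower in RNA (18.5% of all transcripts), 0 in footprints and 7 as higher in TE (2.16% of all transcripts), with a median RNA log2 fold change of -1.39. They included subunits of eIF3, the complex that keeps the 40S subunit free and binds mRNA, from -2.27 ± 0.20 for Eif3k to -0.76 ± 0.24 for Eif3d. Rack1, a scaffold bound to the head of the 40S subunit, had -2.13 ± 0.29. Eif4b, a helicase cofactor and S6 kinase substrate, had -1.93 ± 0.22. Of 59 factors that assemble the small subunit 10 were named, of which 9 passed as lower in RNA, 0 passed in footprints and 1 passed as higher in TE (Heatr1, of the processome that forms on nascent rRNA), with a median RNA log2 fold change of -0.90. Of 14 regulators of TOP mRNAs and of Rps6 phosphorylation 4 were named, and 3 passed as lower in RNA, 0 in footprints and 0 in TE. Mtor, the kinase itself, had an RNA log2 fold change of -0.24 ± 0.22 and did not pass. Without the 2 Ribo-seq libraries that go against their labels, 2 initiation factors passed as lower and 2 as higher in footprints, 3 assembly factors as lower and 1 as higher, and 0 regulators in either direction, where 17.9% of all transcripts passed as lower and 18% as higher. In TE 10 initiation factors, 0 assembly factors and 1 regulator then passed as higher (3.14% of all transcripts).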

How the data were processed

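RNA-seq and Ribo-seq libraries of 6 labelled lymphomas (12 libraries) were analysed. Per the labels and the methods of the study, the authors trimmed reads with cutadapt 2.3, deduplicated Ribo-seq reads with molecular identifiers, filtered out rRNA and tRNA with Bowtie2 2.3.5, and aligned the rest to 1 transcript per gene, that of longest coding sequence; the submitters' notes name the build mm10. The deposited RNA-seq values are raw counts per transcript. The deposited Ribo-seq values are expected counts, a result of the authors' stalling correction of codon counts, and 51.0 to 58.6% of them per library were not whole; they were rounded here. Alignment to 1 transcript per gene lets reads of close copies, and of the 113 pseudogene symbols of these genes, fall on a member.

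Genotypes were compared with edgeR 4.0.16 (quasi-likelihood test, R 4.3.3, limma 3.58.1) over all transcripts that pass its default filter on low counts, scaled by median of ratios separately in each assay, with Benjamini-Hochberg adjustment at 0.05. TE was the genotype by assay interaction; the study used logistic regression instead. All 34 members passed the filter in each fit. Each standard error is the fold change (log2) divided by the root of its F statistic. The fits were tested on simulated data. Deviations of same-numbered libraries of the 2 genotypes correlated at -0.24, -0.14 and 0.03 in RNA-seq and at -0.60, 0.74 and 0.70 in Ribo-seq. The 2 Ribo-seq pairs that deviated together, numbers 2 and 3, each hold a library whose Prps2 footprints go against its label. The part of those libraries in these correlations was not tested, and the numbers were not taken to pair the genotypes. The lymphoma block takes as 1 lymphoma those libraries of both assays that share a label. Replicates differed by more than sampling noise, so none was counted as a duplicate, but by unequal amounts. Chi-square per degree of freedom, near 1 under sampling noise alone, was 1.41 between Eμ-Myc/+ Ribo-seq replicates 1 and 2. Other replicate pairs stood at 3.46 to 34.9. Alternatives were TMM factors, library totals, scaling without ribosomal protein genes or over all libraries, DESeq2 1.42.0, other filters (none, or at least 10 counts in every library), blocks, and leaving out libraries.

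The members, gene lists and places in the subunit were chosen with earlier results of these data known. Of the members 30 are named and 4 are not reported here by name, though counts and medians cover all 34; values in every library are given for those with roles beyond the 40S subunit, for the Rps27 relatives and for the largest and smallest fold changes. Levels per coding length were not used here, as no coding lengths were given, so CPM levels are not compared between genes. Start sequences are from RefSeq (GRCm38.p6), matched by symbol for 26 of 34 members. Counting error sets a floor of 3 counts, or 3.08 CPM in the shallowest library.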

Additional observations from a re-analysis of the deposited data

How the results depend on the processing

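All 34 genes were lower in RNA and higher in TE under each alternative run. The medians stayed within -2.44 to -1.83 in RNA and 1.74 to 2.44 in TE. The members were selected for raised TE in these same libraries, so nothing is read from the shared direction. Calls varied. In TE 28 genes passed; with library totals 3 did, with the replicate block by labelled lymphoma 6, and without 1 lymphoma at a time 0 to 30. In Ribo-seq 0 passed, and 21 did without the 2 libraries whose Prps2 footprints go against their labels. The replicate number as a block left 34 genes in RNA-seq, 0 in Ribo-seq and 30 in TE, adding 2 calls in TE and losing none; the numbers were not taken to pair the genotypes. Without 1 lymphoma at a time the RNA count was 33 to 34 and the footprint median -0.27 to 0.04. Library totals moved the RNA median of all transcripts from 0.08 to 0.37 and the split of calls from 2163 higher and 2712 lower to 3885 and 1660; the median of the 34 genes was then -1.83. Other scalings, DESeq2 and other filters called 34 in RNA-seq, 0 in Ribo-seq and 22 to 32 in TE. The cause of these shifts was not tested.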
